A study of Homo sapiens with 6 samples.

Results

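The unfolded protein response (UPR) and the secretory pathway were represented by 38 genes in HK-2 cells, taken by name at their entry on a primary chromosome from 41497 named entries. They comprised 14 chaperones and folding factors of the endoplasmic reticulum (ER), 7 genes of ER-associated degradation, 5 UPR sensors and transcription factors, 7 target genes of ATF4 and CHOP, and 5 genes of vesicle coat assembly and collagen export. The last group, called export genes below, includes the transcription factors CREB3L1 and CREB3L2. HK-2 is a single immortalised cell line derived from human renal proximal tubule, here of wild-type (WT) genotype in every library. RNA-seq was performed on 3 libraries of control cells and 3 libraries of cells given TGF-β1, the main profibrotic cytokine of the kidney, all with a time of 24 h. Both groups came from cells grown in DMEM-F12 with serum. In the methods of the study, cells were kept without serum during TGF-β exposure, and whether this held for the control libraries is not stated there. Separate cultures were not stated for the replicates, so p-values measure only the spread between these libraries, which may be technical. In RNA from whole cultures, fewer cells of a type and less RNA per cell cannot be told apart.

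Proteins that enter the ER are folded there with the help of chaperones, and proteins that fail to fold are drawn back into the cytosol and degraded. The UPR reads the load of unfolded protein through 3 sensors, IRE1 (gene ERN1), ATF6 and PERK (gene EIF2AK3). IRE1 splices the mRNA of XBP1, and ATF6 is cut in the Golgi, and the resulting factors raise the transcription of chaperones and degradation genes. PERK slows translation and favours that of ATF4, whose targets include CHOP (gene DDIT3) and genes of amino acid metabolism and stress. Cargo that has folded leaves the ER in COPII vesicles, and bulky procollagen needs additional export factors. Tubular cells exposed to TGF-β1 increase the synthesis of extracellular matrix, most of which passes through this route.

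Total counts per library ranged from 21938622 to 26906067. Levels are given as CPM (counts relative to library size, scaled by the TMM method). Of 11 proximal tubule markers only 4 passed the count filter, and LRP2 and SLC22A6 were at 0 in every library. The summed level of these markers, made up mostly of PAX8 and GGT1, was 308 to 342 CPM in control and 193 to 225 CPM after TGF-β1. PAX8 and GGT1 were called lower, whereas CUBN (0.82) and AQP1 (2.10) were called higher at levels under 2 CPM. Summed fibroblast markers stood at 59.0 to 68.6 CPM in control and 58.1 to 59.0 CPM after TGF-β1, with PDGFRA near 0. This sum was mostly LUM, which was called lower, whereas PDGFRB (log2 fold change 3.38, to 5.79 CPM) and COL3A1 (2.78, to 1.40 CPM) were called higher. The part of these markers in the results below was not tested. Summed endothelial markers were 0.858 to 1.60 CPM in control and 0 to 0.038 CPM after TGF-β1, with KDR near 0 throughout. CDH5 had 29, 16 and 17 counts in control and 0 in every TGF-β1 library, and it was called lower (-7.39). PECAM1 and VWF, at a few counts in control, were also at 0 after TGF-β1. Summed immune markers were 92.0 to 102 CPM in control and 60.9 to 84.5 CPM after TGF-β1, nearly all of it CD68, with CD3E and MS4A1 at 0.

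Chaperones, degradation genes and export genes were mostly higher after TGF-β1. Of the 5 tested ATF4 and CHOP targets, 0 were called higher and 1 lower. Counts this small do not set them apart from all tested genes. Of the 38 genes, 35 passed the filter on low counts, and DERL3, SESN2 and ASNS did not. The edgeR quasi-likelihood test called 24 of the 35 higher and 2 lower at an adjusted p under 0.05, against 22.2% higher and 22.1% lower (44.3% in either direction) among all 14860 genes tested. Because the members were chosen with earlier results of these data known, this comparison is a description only. Scaling by total counts only shifted the median of all genes by -0.11, and the split of calls over all genes then moved from 3294 higher and 3288 lower to 2134 higher and 4590 lower. Under that scaling 21 members were called higher and 5 lower. All TGF-β1 libraries lay above all control libraries for 24 members and below them for 3, against 27.9% and 27.7% of all tested genes. The log2 fold changes of the tested members ranged from -0.53 to 0.94 with a median of 0.41, beside a median of 0.01 over all tested genes. No member changed by as much as 1 on this scale.

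**Figure D1:**
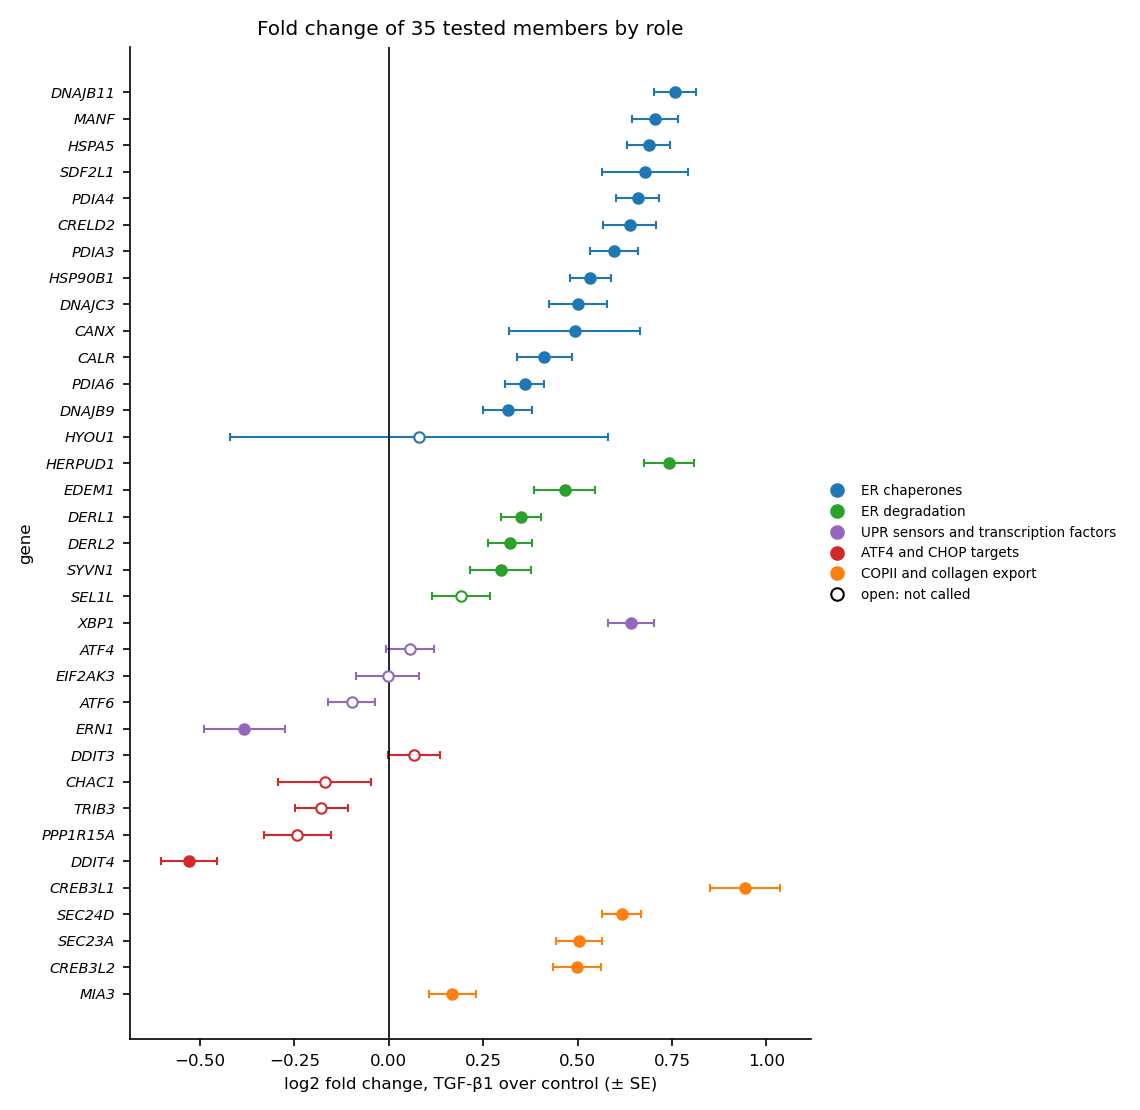
Log2 fold change (TGF-β1 over control, horizontal axis, with the standard error as bars) of the 35 tested genes, ordered by role and coloured by it. Filled points passed the edgeR test and open points did not. Chaperones lie between 0.08 and 0.76, whereas the ATF4 and CHOP targets lie between -0.53 and 0.07.

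The 5 roles differed in their counts. Chaperones had 13 of 14 genes called higher and none called lower, with a median log2 fold change of 0.56. Degradation genes had 5 of 6 tested genes called higher with a median of 0.34, and export genes had 5 of 5 with a median of 0.50. Among the sensors and transcription factors, XBP1 was called higher, ERN1 was called lower and the remaining 3 were not called. Of the 5 tested ATF4 and CHOP targets 0 were called higher and 1 lower, and their median was -0.18. Beside 22.2% higher and 22.1% lower among all tested genes, counts out of 5 this small are not set apart. These medians and counts describe the members and were not tested against each other.

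The chaperones called higher included HSPA5, HSP90B1 and CALR, the most abundant of the list. HSPA5 (gene-HSPA5, GRCh38 chromosome 9, 125234853 to 125241343), which encodes BiP, the central Hsp70 chaperone of the ER and a classical marker of UPR activity, had 1746, 1644 and 1709 CPM in control and 2634, 2772 and 2810 CPM after TGF-β1. The lowest TGF-β1 library lay far above the highest control library, and HSPA5 rose by 0.69 ± 0.06 (SE) on the log2 scale (edgeR adjusted p 3.06e-06). HSP90B1, the ER paralog of Hsp90 (GRP94), had 2423, 2442 and 2500.5 CPM in control and 3478, 3543 and 3641 CPM after TGF-β1. It rose by 0.53 ± 0.05 (edgeR adjusted p 1.59e-05) with tight values in both groups. CALR, which encodes calreticulin, a lectin chaperone that holds glycoproteins, had 2116, 2079.6 and 2010.4 CPM in control and 3056, 2608 and 2595 CPM after TGF-β1. It rose by 0.41 ± 0.07 (edgeR adjusted p 8.3e-04), and TGF-β1 replicate 1 stood above the other 2 treated libraries.

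CANX encodes calnexin, the membrane-bound counterpart of calreticulin. At its primary entry (chromosome 5, 179678646 to 179731641) it had only 3.63, 3.64 and 3.92 CPM in control and 4.42, 6.74 and 4.58 CPM after TGF-β1. All 3 treated libraries were above control, with a log2 fold change of 0.49 ± 0.17 (edgeR adjusted p 0.04), but the highest value came from TGF-β1 replicate 2. Without that library the change was 0.27 (edgeR adjusted p 0.203), and the call was lost in 8 of 15 alternatives. It was also lost without control replicate 1 (0.47), control replicate 2 (0.47) and control replicate 3 (0.53). Most of the counts of this name were listed on an alternate contig, an additional version of part of the chromosome in the reference. The entries summed to 143.9, 148.8 and 137.3 CPM in control and 182.5, 196 and 205 CPM after TGF-β1. The summed level rose by 0.44 ± 0.06 (edgeR adjusted p 1.12e-04), and its groups did not overlap.

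Protein disulfide isomerases, which form and rearrange disulfide bonds, also rose. PDIA3, the partner of calnexin and calreticulin, had 648, 644 and 637 CPM in control and 1061, 928 and 925 CPM after TGF-β1, a change of 0.60 ± 0.06 (edgeR adjusted p 2.5e-05). PDIA4 had 499.7, 471 and 489 CPM in control and 814, 748 and 743 CPM after TGF-β1, a change of 0.66 ± 0.06 (edgeR adjusted p 4.84e-06). PDIA6, which can switch off IRE1 and PERK by reducing their disulfides, had 284, 269.99 and 278 CPM in control and 350.03, 348 and 369.6 CPM after TGF-β1. Its rise of 0.36 ± 0.05 (edgeR adjusted p 2.3e-04) was the smallest of the 3 isomerases, and it was not called against a 1.2-fold limit. The groups did not overlap for any of the 3, and TGF-β1 replicate 1 was the highest library for PDIA3 and PDIA4. PDIA6 shared 32.7% of its exon bases with ATP6V1C2 on the opposite strand, and whether counting used the strand was not given in the sources used here. ATP6V1C2 had 35 to 54 counts per library.

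J-domain proteins deliver clients to BiP and stimulate its ATPase. DNAJB11 had 118, 113 and 112 CPM in control and 204, 185 and 191 CPM after TGF-β1, and its rise of 0.76 ± 0.06 (edgeR adjusted p 1.24e-06) was the highest of the chaperones. DNAJC3 (P58IPK), which also inhibits PERK, had 69.7, 69.4 and 68.2 CPM in control and 87.0, 97.6 and 109 CPM after TGF-β1, a change of 0.50 ± 0.08 (edgeR adjusted p 3.33e-04). DNAJB9 (ERdj4), which represses IRE1 through BiP, had 19.6, 18.2 and 19.5 CPM in control and 24.0, 22.9 and 24.4 CPM after TGF-β1. Its change of 0.31 ± 0.07 (edgeR adjusted p 0.00263) was lower than that of the other J-domain genes and was not called against the 1.2-fold limit. For all 3 genes the groups were apart, and DNAJC3 varied more among the treated libraries than among the controls.

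SDF2L1, MANF and CRELD2 encode small secreted or ER-resident proteins that are induced by ER stress. MANF, which binds BiP and stabilises its client complexes, had 74.2, 70.1 and 75.9 CPM in control and 128, 113 and 118 CPM after TGF-β1, a rise of 0.70 ± 0.06 (edgeR adjusted p 4.93e-06). SDF2L1, a partner of DNAJB11 in the BiP cycle, had 11.5, 10.2 and 9.29 CPM in control and 17.8, 14.1 and 17.8 CPM after TGF-β1, a rise of 0.68 ± 0.11 (edgeR adjusted p 6.51e-04). CRELD2 had 24.1, 24.9 and 22.8 CPM in control and 40.0, 35.1 and 36.5 CPM after TGF-β1, a rise of 0.64 ± 0.07 (edgeR adjusted p 3.26e-05). Each of these genes had every treated library above every control library.

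HYOU1 (GRP170), the nucleotide exchange factor of BiP, was the exception among the chaperones. It had 21.6, 55.8 and 33.6 CPM in control and 23.4, 52.0 and 42.4 CPM after TGF-β1. The groups overlapped almost entirely, the lowest library of each being replicate 1 and the highest replicate 2. The log2 fold change of 0.08 ± 0.50 (edgeR adjusted p 0.918) had a standard error several times that of the other chaperones, so a change of the size seen in its neighbours was not detectable. Leaving out 1 library moved it between -0.19 (without control replicate 1) and 0.50 (without control replicate 2), with no call in any alternative.

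Ordered per transcript length in the deposited TPM (counts relative to transcript length and library), the chaperone pool of control cells was dominated by a few genes. CALR had 3621 ± 29.1 TPM (SD, n = 3), HSP90B1 had 2938 ± 102 TPM and HSPA5 had 1443 ± 44.9 TPM, which were 36.1%, 29.3% and 14.4% of the summed chaperone TPM. Values fell to 581 ± 5.62 TPM for PDIA3, 505 ± 15.5 TPM for PDIA4, and 26.04 ± 0.891 TPM for CRELD2. DNAJB9 (26.4 ± 1.19 TPM), CRELD2 and HYOU1 (25.3 ± 11.9 TPM) did not differ beyond their spread, and the primary entry of CANX was lowest at 2.09 ± 0.129 TPM. The summed TPM of the 14 genes was 9966, 9936 and 10171 TPM in control and 13371, 13299 and 13315 TPM after TGF-β1. The ratio was 1.33 ± 0.017, its SD propagated from both groups.

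**Figure D2:**
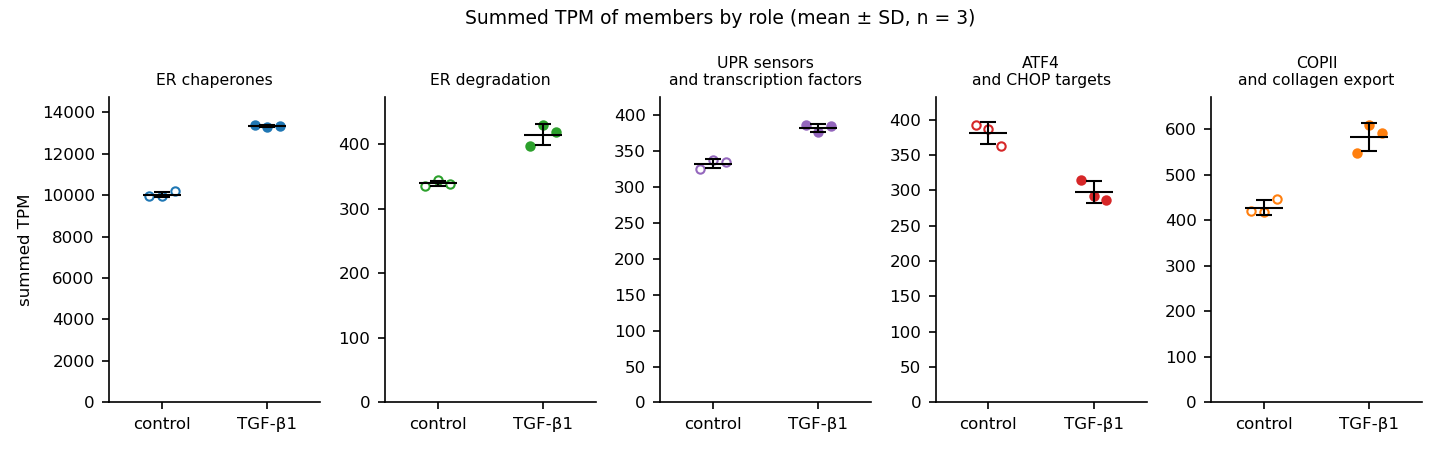
Summed TPM of each role (vertical axis, starting at 0 in each panel) in the 3 control libraries (open points) and the 3 TGF-β1 libraries (filled points), with the mean and SD as bars. The sums are apart for all 5 roles, higher after TGF-β1 for 4 of them and lower, at 287 to 315 against 363 to 392 TPM, for the ATF4 and CHOP targets. In TMM-scaled CPM the gap for these targets was narrower, at 185 to 214 against 217 to 242 CPM.

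Promoter sequences were searched because many of these chaperones rose together and some of them hold a known element. The ER stress response element (ERSE), bound by ATF6 and XBP1 together with NF-Y, was searched as CCAAT and CCACG separated by 9 bases. The UPR element (UPRE) was searched as TGACGTGG and the C/EBP-ATF response element (CARE), bound by ATF4, as TGATGNAA. RefSeq promoter windows (assembly GRCh38.p14) ran from 250 bases before to 50 bases after a start, both strands were read, and 34 of the 38 genes had a window. DERL1, DERL3, PDIA3 and SEC24D had none. ERSE occurred in 0.0769% of 35116 windows and in 7 members, namely HSPA5, HSP90B1, CALR, CANX, PDIA6, CRELD2 and XBP1. All 7 were called higher, as were 24 of all 35 tested members. DNAJB11, MANF, SDF2L1, PDIA4, DNAJC3 and DNAJB9 also rose and had no ERSE in their windows. The other tested genes with an ERSE numbered 9, of which 3 were called higher (SERP1 at 0.43, EIF2A at 0.27 and ZNF17 at 0.26) and 2 lower (SYNPO at -0.69 and ERO1B at -0.31). UPRE was found in 0.729% of windows and in HYOU1 and SEC23A, and of the 134 tested genes with a UPRE 41 were called higher and 24 lower. CARE was found in 3.62% of windows and in ASNS, CHAC1, HERPUD1 and CREB3L2. Of the 315 tested genes with a CARE, 74 were called higher and 79 lower. All these counts are to be read beside 22.2% called higher and 22.1% lower among all tested genes, and those of CARE lay close to these shares. No window held both an ERSE of this 9-base spacing and a UPRE, and other spacings were not searched. A match gives the letters only and does not show that a factor was bound.

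The stretches of HSPA5, CALR and CRELD2 show the ERSE of chaperones that rose, and those of HYOU1 and HERPUD1 show a UPRE and a CARE. Capitals mark the match, on the strand of the gene from 5′ to 3′. CALR, CRELD2 and HERPUD1 hold the motif on the opposite strand, so it reads as its reverse complement.
HSPA5 (chr9:125241379-125241421, minus strand): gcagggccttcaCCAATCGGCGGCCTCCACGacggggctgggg
CALR (chr19:12938372-12938414, plus strand): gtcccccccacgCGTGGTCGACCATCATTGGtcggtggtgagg
CRELD2 (chr22:49918542-49918584, plus strand): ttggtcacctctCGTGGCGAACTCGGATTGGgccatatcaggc
HYOU1 (chr11:119057374-119057405, minus strand): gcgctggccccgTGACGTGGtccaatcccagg
HERPUD1 (chr16:56931954-56931985, plus strand): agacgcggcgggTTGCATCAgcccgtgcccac
In GENCODE v29 the stretches of HSPA5, CALR, HYOU1 and HERPUD1 lay outside every annotated transcript, and that of CRELD2 lay in an intron of a longer CRELD2 transcript. The ERSE of HSPA5 began at position -66 from the start, that of CALR at -225, that of CRELD2 at -80 and that of XBP1 at -52.

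Of the 6 tested genes of ER-associated degradation, all but SEL1L were called higher, and HERPUD1 rose most. HERPUD1 (chromosome 16, 56932142 to 56944864), a membrane protein that organises the degradation complex, had 58.8, 62.2 and 53.1 CPM in control and 100.3, 96.1 and 94.8 CPM after TGF-β1. It rose by 0.74 ± 0.07 (edgeR adjusted p 5.93e-06), and the groups were far apart. EDEM1, which takes misfolded glycoproteins out of the calnexin cycle by trimming mannose, had 67.7, 66.0 and 66.8 CPM in control and 79.7, 99.1 and 98.4 CPM after TGF-β1, a rise of 0.47 ± 0.08 (edgeR adjusted p 8.47e-04). TGF-β1 replicate 1 was the lowest treated library for EDEM1 but still lay above every control.

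The derlins form part of the channel through which substrates leave the ER. DERL1 had 101, 100.5 and 95.1 CPM in control and 129, 127 and 122 CPM after TGF-β1, a rise of 0.35 ± 0.05 (edgeR adjusted p 3.04e-04). DERL2 had 67.2, 68.6 and 66.5 CPM in control and 88.3, 78.7 and 85.7 CPM after TGF-β1, a rise of 0.32 ± 0.06 (edgeR adjusted p 0.00117). Neither overlapped between groups, and neither was called against the 1.2-fold limit. DERL3 had 0 counts in every library at its primary entry and 1 to 6 counts at a copy on an alternate contig, so it was not tested. At the primary entry 74.5% of its exon bases were shared with SMARCB1 on the opposite strand.

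The ubiquitin ligase of this pathway is SYVN1 (HRD1), held in its complex by SEL1L. SYVN1 had 26.8, 24.9 and 25.7 CPM in control and 35.4, 29.4 and 30.1 CPM after TGF-β1, a rise of 0.30 ± 0.08 (edgeR adjusted p 0.0112). The groups did not overlap, and TGF-β1 replicate 1 was the highest library. The call was lost without control replicate 2 (0.27, edgeR adjusted p 0.0528) and with total counts only (0.19). SEL1L had 199.8, 203 and 211 CPM in control and 204, 254 and 243 CPM after TGF-β1. Here TGF-β1 replicate 1 lay within the control range, and SEL1L was not called at 0.19 ± 0.08 (edgeR adjusted p 0.0642). Without that library its change was 0.27 (edgeR adjusted p 6.5e-05), and it was also called by DESeq2 (adjusted p 0.049) and with all genes that had a count.

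TGF-β1 replicate 1 differed from the other treated libraries by gene length, and the same counts were not made for any other library. Among the 35 tested members it was the highest treated library for 19, with a median length of 3056 bases, and the lowest for 14, with a median length of 6388.5 bases. Over all tested genes it was the highest for 40.7% (median 3002 bases) and the lowest for 39.4% (median 6029.5 bases). The part of this difference in single results was not tested beyond leaving the library out. Without it, 25 members were called higher and 4 lower, among them 3 of the ATF4 and CHOP targets. Calls also rose over all genes, to 3545 higher and 3651 lower of 15106 tested, against 3294 and 3288 of 14860 with it.

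**Figure D3:**
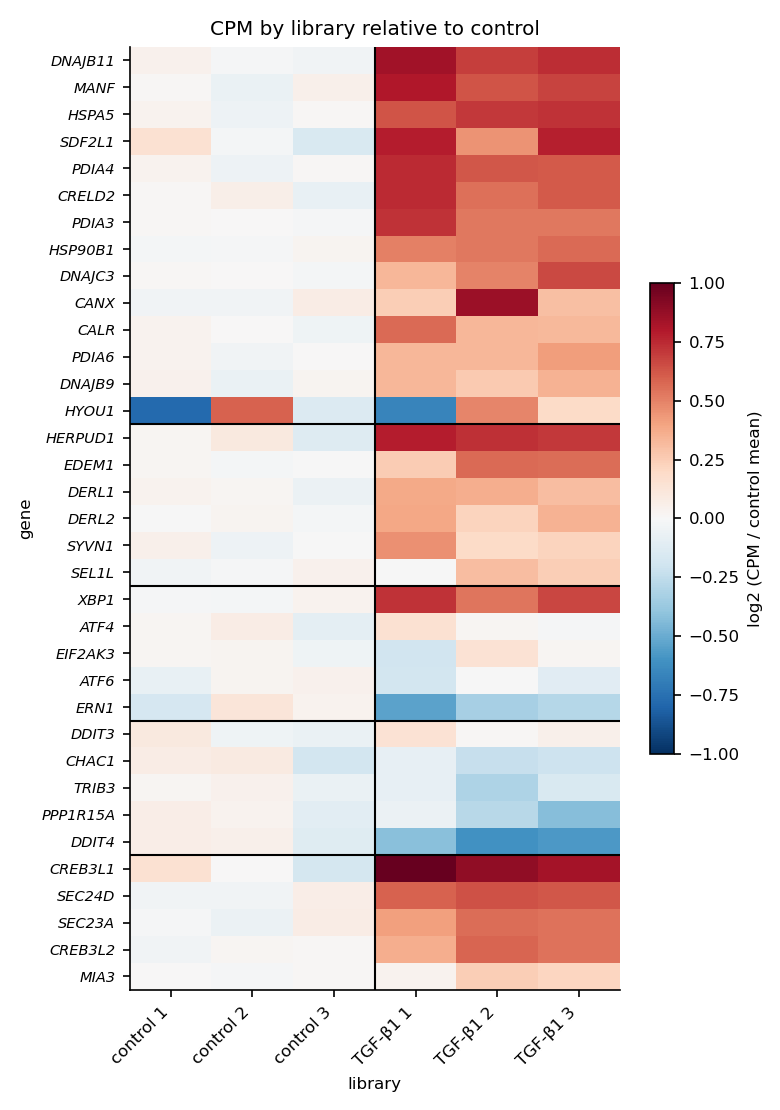
CPM of the 35 tested genes in each library, as log2 of the ratio to the control mean (colour, from -1 to 1), with genes in rows by role and the 6 libraries in columns. Chaperones and export genes are red in all 3 TGF-β1 columns apart from HYOU1, which varies within both groups. DDIT4 and ERN1 are blue in all 3.

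Of the 3 sensors, ERN1 was called lower and ATF6 and EIF2AK3 were not called, whereas XBP1 was called higher. XBP1 (chromosome 22, 28794560 to 28800569), the factor made by IRE1 splicing and itself a UPR target, had 83.6, 83.0 and 86.2 CPM in control and 139, 122 and 134 CPM after TGF-β1. It rose by 0.64 ± 0.06 (edgeR adjusted p 9.23e-06), with a clear gap between groups. These gene-level counts do not separate spliced from unspliced XBP1 mRNA. ERN1 (chromosome 17, 64039142 to 64132469), which encodes IRE1 itself, had 10.5, 12.9 and 12.1 CPM in control and 8.18, 9.43 and 9.74 CPM after TGF-β1. It fell by 0.38 ± 0.11 (edgeR adjusted p 0.0137), and the lowest control stood just above the highest treated library. The call was lost without control replicate 2 (-0.32, edgeR adjusted p 0.0695) and without control replicate 3 (-0.37, edgeR adjusted p 0.0501).

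ATF6 had 83.0, 88.9 and 90.3 CPM in control and 77.004, 87.1 and 81.0 CPM after TGF-β1, with a log2 fold change of -0.10 ± 0.06 (edgeR adjusted p 0.231). EIF2AK3 had 28.7, 28.8 and 27.5 CPM in control and 24.8, 31.3 and 28.8 CPM after TGF-β1, and its change was -0.00 ± 0.08 (edgeR adjusted p 0.98). ATF4, the transcription factor translated when PERK is active, had 299.8, 312 and 277 CPM in control and 329, 301 and 295 CPM after TGF-β1, with a change of 0.06 ± 0.06 (edgeR adjusted p 0.498). The groups overlapped for all 3, and none was called. ATF6 was called lower with total counts only, at -0.21, and the sign of ATF4 turned under that scaling. ATF4 is regulated mainly in translation, which mRNA counts do not measure, and 47.2% of its exon bases were shared with MIEF1 on the same strand, which had 390 to 556 counts per library. In TPM, XBP1 (145 ± 5.33) and ATF4 (128 ± 6.15) were the most abundant of this role in control cells, and ERN1 (3.63 ± 0.408) the least.

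Of the 5 tested ATF4 and CHOP targets, 0 were called higher and 1 lower, beside 22.2% and 22.1% of all tested genes. Outside the members, ATF4 targets went both ways. STC2 fell (-0.56), whereas 4 of 7 aminoacyl-tRNA synthetases, picked out after their values were seen, were called higher and 0 lower. DDIT3, which encodes CHOP, the factor linked to death under lasting ER stress, had 32.8, 29.7 and 29.2 CPM in control and 33.7, 30.8 and 31.6 CPM after TGF-β1. The groups overlapped, and its change was 0.07 ± 0.07 (edgeR adjusted p 0.459), turning negative with total counts only (-0.04). On the opposite strand 5.77% of its exon bases were shared with MARS1, which had 5797 to 7707 counts per library. DDIT4 (chromosome 10, 72273924 to 72276036), an inhibitor of mTORC1 that ATF4 and several other stress pathways induce, had 62.5, 61.8 and 54.9 CPM in control and 44.7, 39.2 and 40.1 CPM after TGF-β1. It fell by 0.53 ± 0.07 (edgeR adjusted p 1.74e-04), the groups were apart, and the call held in all 15 alternatives.

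PPP1R15A (GADD34) recruits the phosphatase that ends the translation block set by PERK. It had 95.8, 94.0 and 85.1 CPM in control and 88.2, 75.8 and 68.3 CPM after TGF-β1, and only TGF-β1 replicate 1 reached into the control range. Its change of -0.24 ± 0.09 missed the threshold (edgeR adjusted p 0.0503) but passed it in 8 of 15 alternatives. These included the fit without TGF-β1 replicate 1 (-0.36, edgeR adjusted p 2.73e-04), the fit without control replicate 3 (-0.29) and DESeq2 (-0.25). TRIB3, a pseudokinase induced by CHOP that dampens ATF4, had 44.0, 44.8 and 41.6 CPM in control and 41.0, 35.1 and 39.1 CPM after TGF-β1. All 3 treated libraries were below control by a small margin, and the change was -0.18 ± 0.07 (edgeR adjusted p 0.0602). Without TGF-β1 replicate 1 it was -0.24 (edgeR adjusted p 0.00626). CHAC1, which degrades glutathione, had 6.78, 6.87 and 5.67 CPM in control and 6.07, 5.50 and 5.59 CPM after TGF-β1, and its change of -0.17 ± 0.12 (edgeR adjusted p 0.287) was not called.

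ASNS and SESN2 could not be read at their primary entries. ASNS, which encodes asparagine synthetase, had 6, 8 and 6 counts in control and 7, 8 and 4 counts after TGF-β1. It shared 69.5% of its exon bases with the readthrough gene CZ1P-ASNS on the same strand, which had 80, 104 and 87 counts in control and 76, 86 and 84 counts after TGF-β1. SESN2, which senses leucine for mTORC1, had 0 counts in all libraries at its primary entry (chromosome 1, 28259452 to 28282491). A copy on an alternate contig had 61, 66 and 15 counts in control and 31, 157 and 106 counts after TGF-β1. The groups overlapped there, and the change of 1.07 ± 0.86 (edgeR adjusted p 0.384) was not called.

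All 5 genes grouped under vesicle coat assembly and collagen export were called higher, beside 22.2% of all tested genes. The group includes the transcription factors CREB3L1 and CREB3L2, which are not coat or export proteins. CREB3L1 (OASIS; chromosome 11, 46277661 to 46321409) encodes a membrane-bound transcription factor that is released by cleavage in the Golgi and activates collagen genes. It had 50.5, 45.4 and 40.3 CPM in control and 96.9, 84.0 and 80.7 CPM after TGF-β1. Its rise of 0.94 ± 0.09 (edgeR adjusted p 2.12e-05), a fold of 1.92, was the largest of the 35 members, and the groups were far apart. CREB3L2 (BBF2H7), a related factor that drives SEC23A expression in cartilage, had 109.9, 115 and 114 CPM in control and 145, 169 and 164 CPM after TGF-β1. It rose by 0.50 ± 0.06 (edgeR adjusted p 9.61e-05), with TGF-β1 replicate 1 the lowest of the treated libraries.

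SEC23A and SEC24D form the inner coat of COPII vesicles, SEC24D being the subunit that binds cargo. SEC23A had 210.2, 203 and 223 CPM in control and 282, 312 and 309.6 CPM after TGF-β1, a rise of 0.50 ± 0.06 (edgeR adjusted p 5.85e-05). SEC24D had 159, 159.7 and 171 CPM in control and 245.5, 254 and 251 CPM after TGF-β1, a rise of 0.62 ± 0.05 (edgeR adjusted p 3.7e-06). Neither gene overlapped between groups. MIA3 (TANGO1), the receptor that fits procollagen into COPII carriers, had 122.7, 121 and 123 CPM in control and 125, 145 and 142 CPM after TGF-β1. TGF-β1 replicate 1 stood only just above the controls. MIA3 changed by 0.17 ± 0.06 (edgeR adjusted p 0.047), the smallest rise of the role, and the call was lost in 10 of 15 alternatives. These were 5 other tests, scalings or filters and the fits without control replicate 1 (0.17), control replicate 2 (0.16), control replicate 3 (0.17), TGF-β1 replicate 2 (0.13) or TGF-β1 replicate 3 (0.14). With total counts only its change was 0.06.

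The remaining sums of TPM over each role are given as descriptions. Degradation genes had 336, 344 and 338 TPM in control and 396, 429 and 418 TPM after TGF-β1, a ratio of 1.22 ± 0.052. Export genes had 420.2, 417 and 446 TPM in control and 547, 609 and 592 TPM after TGF-β1, a ratio of 1.36 ± 0.090. Sensors and transcription factors had a ratio of 1.15 ± 0.027, XBP1 being the member called higher. ATF4 and CHOP targets had 392, 387 and 363 TPM in control and 315, 292 and 287 TPM after TGF-β1, a ratio of 0.783 ± 0.051. In TMM-scaled CPM their ratio was 0.841 ± 0.085.

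Other genes of the same pathways were counted from lists drawn up by role, to be read against 22.2% called higher and 22.1% called lower among all tested genes. Like the members, these lists were chosen with earlier results of these data known, so their counts are descriptions and no independent support. Of 33 translocon genes, which thread, cleave and glycosylate new chains at the ER membrane, 25 were called higher and 3 lower, with a median log2 fold change of 0.26. The higher calls were 14 with total counts only and 9 against the 1.2-fold limit. OSTC (0.59) and DAD1 (0.57), both of the oligosaccharyltransferase, rose most, and TRAM1 (-0.41) and TRAM2 (-0.29) fell most. Of 29 tested genes of ER export other than the members, 20 were called higher and 3 lower, with a median of 0.25, and the higher calls were 13 with total counts only and 7 against the 1.2-fold limit. Among them BET1, a SNARE of ER-to-Golgi vesicles, rose by 0.59 and SEC13, of the outer COPII coat, by 0.52, whereas SEC31B (-0.70) and KLHL12 (-0.30), an adaptor for large COPII carriers, fell.

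Folding and degradation genes outside the members were counted in the same way. Of 19 other folding genes tested, 5 were called higher and 3 lower, with a median of 0.11. PPIB (0.78), a prolyl isomerase needed for collagen folding, and FKBP14 (0.60), of the same kind, rose most, and ERO1B (-0.31), an oxidase of disulfide isomerases, and ERP29 (-0.24) fell most. TXNDC5, named after its values were seen because it stands apart in the plot of lists, had 3.19, 4.50 and 5.75 CPM in control and 5.84, 7.86 and 17.8 CPM after TGF-β1 and was not called (1.22 ± 0.53, edgeR adjusted p 0.138). Of 18 other degradation genes, 7 were called higher and 2 lower, with a median of 0.12. The higher calls fell to 3 without control replicate 3, to 4 without control replicate 2, TGF-β1 replicate 2 or TGF-β1 replicate 3, and to 3 with total counts only. UBE2J1 (0.79), a ubiquitin-conjugating enzyme of the ER membrane, and SELENOK (0.67) rose most, and NGLY1 (-0.22) and UBXN4 (-0.21) fell.

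Of 29 other genes of the UPR and the integrated stress response, the wider pathway through ATF4, 9 were called higher and 7 lower, with a median of 0.03, shares close to those of all genes. CEBPB, a transcription factor that pairs with ATF4 and CHOP, rose by 0.67, and EIF4EBP1, a brake on translation, by 0.58. ERRFI1, an inhibitor of the EGF receptor, fell by 0.98, and STC2, a secreted glycoprotein induced by ATF4, fell by 0.56. Of all 128 tested genes of these lists, 66 were called higher and 18 lower, with a median of 0.17.

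**Figure D4:**
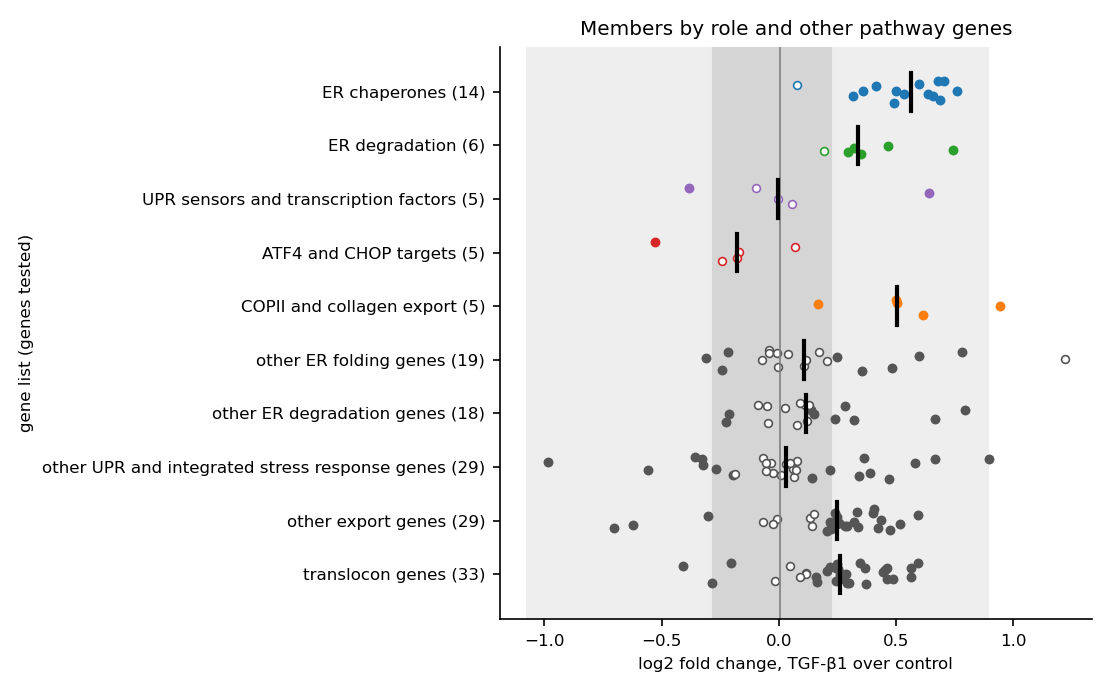
Log2 fold change (TGF-β1 over control, horizontal axis) of each tested gene by role or list, with filled points for genes called by edgeR, open points for the rest and a black bar at the median. Grey bands run from percentile 5 to 95 and from percentile 25 to 75 of all 14860 tested genes. Medians of the chaperones (0.56), export genes (0.50) and degradation genes (0.34) lie beyond the inner band, whose upper edge is at 0.22. Those of the translocon genes (0.26) and other export genes (0.25) do so too, and that of the ATF4 and CHOP targets (-0.18) lies within it.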

How the data were processed

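The series holds 6 RNA-seq libraries of HK-2 cells, grouped by the treatment in their labels as 3 control and 3 TGF-β1 libraries. The labels place the mRNA on oligo(dT) beads before random-primed cDNA synthesis, and the study's methods name adapter and quality filtering by the authors and sequencing on an MGI instrument. Per the submitters' processing notes, CASAVA, featureCounts 2.0.1, DESeq2 1.16.1 and the build hg38 were used. The aligner and the strand setting are not given in the sources used here. The deposited tables list raw counts per gene, TPM and FPKM by the authors, and FPKM was not used. Broken records (7 in each library) were rejoined. Unnamed loci, with 0.396% to 0.464% of counts, entered neither library sizes nor tests.

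The members and all lists were chosen with earlier results of these data known. Members were read at their entry on a primary chromosome. Genes passing filterByExpr of edgeR 4.0.16 (minimum count 10) were scaled by TMM and compared with the two-sided edgeR quasi-likelihood F test across 14860 genes, with Benjamini-Hochberg adjusted p under 0.05 as the call. The standard error was the size of the log2 fold change divided by the square root of F. CPM used the TMM-scaled library size, and TPM were taken as deposited. All members are accounted for. Of each list of other pathway genes, the 2 largest rises and 2 largest falls are named if called, at 5 CPM or more on average and without overlapping groups. A gene chosen to check the treatment label is not reported here. Exon overlaps used the exon positions in the deposited tables, and promoter stretches were placed on GENCODE v29. The test was checked on simulated data in which far fewer genes changed than were called here, so scaling under wide change was not checked. Alternatives were DESeq2 1.42.0, limma-voom (limma 3.58.1), RLE size factors, total counts only, every gene with a count, a mean of at least 50 counts, a replicate block, entries of a name summed, a 1.2-fold limit (glmTreat), and leaving out each library. Other software was R 4.3.3, Python 3.11.15, pandas 2.3.3 and scipy 1.17.1. A planned comparison of retention signals at protein ends was not run.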

Additional observations from a re-analysis of the deposited data

Results flagged for a closer look

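The copy of CANX on an alternate contig, which lies outside the primary entries compared above, had 3169, 3555 and 3131 counts in control and 4632, 4571 and 4199 counts after TGF-β1, a log2 fold change of 0.44 (edgeR adjusted p 1.61e-04). The copy of SURF4, a cargo receptor of ER export, had 162, 216 and 202 counts in control and 381, 329 and 306 counts after TGF-β1 on an alternate contig, a log2 fold change of 0.80 (edgeR adjusted p 7.2e-05).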

How the results depend on the processing

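Of the 26 called members, 18 kept their call in all 15 alternatives and 22 in all but the 1.2-fold limit, and no member that was called changed direction. With total counts only, 2134 of all genes were called higher, and the lower calls numbered 5 for members, 2 for sensors and 3 for ATF4 and CHOP targets, while higher calls numbered 3 for other degradation, 13 for other export and 14 for translocon genes. The 1.2-fold limit left 1473 higher and 1854 lower calls over all genes, 1 lower call among members, 2 higher among degradation members and 0 lower among sensors. In the other lists it left 3 higher and 0 lower for folding, 2 and 0 for degradation, 7 and 1 for export and 9 and 1 for translocon genes, and 2 lower for UPR and integrated stress response genes. A mean of at least 50 counts gave 4 lower members and 3 lower ATF4 and CHOP targets. DESeq2, all genes with a count and entries summed each gave 2 lower ATF4 and CHOP targets, and DESeq2 gave 1 lower call among other degradation genes. The replicate block also gave 2, adding calls of PPP1R15A (-0.25) and SEL1L (0.19), with 3396 higher and 3394 lower calls over all genes. Same-numbered libraries deviated with correlations of 0.111, -0.012 and 0.076, and other pairs with -0.149 to 0.088. Whether same-numbered libraries were paired cannot be told from these values. Without 1 library, lower calls ranged from 1 to 4 for members, 0 to 1 for sensors, 1 to 3 for ATF4 and CHOP targets, 1 to 2 for other degradation and 1 to 3 for translocon genes, and higher calls for other degradation from 3 to 8. Where a library decided the call of a member it is named with that gene, and the cause was not tested. The TPM ratios of 1.33, 1.22, 1.15 and 0.783 became 1.46, 1.28, 1.10 and 0.841 in CPM. By construction the CPM were TMM-scaled and not divided by transcript length, and the part of each in these shifts was not tested. Genes under the count filter and the wide spread of HYOU1 limit what depth can show.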

Other observations

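The list of other UPR and integrated stress response genes held 7 aminoacyl-tRNA synthetases, which charge tRNAs and are known targets of ATF4. They were picked out after their values were seen and are described without a test of the group. WARS1 rose by 0.47, TARS1 by 0.39, SARS1 by 0.34 and GARS1 by 0.22 on the log2 scale. By edgeR 4 of the 7 were called higher and 0 lower, beside 22.2% and 22.1% of all tested genes. TARS1 had 332, 329 and 333 CPM in control and 433, 429.7 and 437 CPM after TGF-β1, with no overlap between groups. The other 3, AARS1 (0.01), NARS1 (0.03) and EPRS1 (0.06), were not called.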
